A study of Drosophila melanogaster with 2 samples.

Results

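Among the 2487 peaks that passed the authors' reproducibility threshold in a chromatin immunoprecipitation and sequencing (ChIP-seq) experiment on the fly repressor E(spl)m5-HLH, 384 (15.4%, 95% Wilson interval 14.1 to 16.9) had their summit inside the 5' untranslated region (5' UTR) of a protein-coding gene. A summit, the position of highest signal in a peak, was counted when it lay in an annotated 5' UTR and when the nearest annotated start site of any gene belonged to a protein-coding gene. Another 9 summits lay in a 5' UTR but closest to the start of a non-coding gene and were left out. The material was whole Drosophila melanogaster embryos aged 0 to 12 hours, male and female pooled, of a transgenic line (E(spl)m5-GFP) that stably carries E(spl)m5-HLH with GFP at its C terminus. The 2 samples are biological replicates numbered 3 and 4, both from this line, and form 1 group. Their antibody label and assay title describe an immunoprecipitation of E(spl)m5-HLH, whereas their free-text description calls them input controls, and the values are given here on the first reading. The sources used here do not state the place or copy number of the tagged insertion, the promoter that drives it or the depth of sequencing. No list from an untagged line was used, and whole embryos do not show in which cells a site was occupied. All values therefore describe positions and ranks in 1 pair of libraries, no condition is compared with another, and intervals for shares cover counting error only.

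The tagged protein belongs to the Hairy and Enhancer of split family of basic helix-loop-helix (bHLH) repressors, which Notch signalling switches on and which restrain neural fate in the embryo. These proteins bind short DNA sites, among them CACGTG and the related site CACGCG, and recruit the corepressor Groucho. A 5' UTR is the transcribed stretch between the start site and the start codon, so its first bases overlap the core promoter, where RNA polymerase and general factors assemble. Core promoters of fly ribosomal protein and other translation genes often carry a polypyrimidine TCT element at the start site. Many promoters of broadly expressed genes carry the DNA replication-related element TATCGATA, abbreviated DRE and bound by the factor DREF, or the core promoter motif GGTCACACT, called motif 1.

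Stretches of 30 bases from some of the strongest summits with each motif show the kinds of sequence found there. All are read in the direction of the gene from the RefSeq genome sequence of the dm6 assembly, with the matched word in capitals. The first set shows the TCT element, searched as CCTTTC or CCTTTT or TCTTTC or TCTTTT, because ribosomal protein genes held it at most of their summits.
RpS27, chr3R:25247452-25247481, minus strand: tttaccccacttCCTTTTccgtgttagctg
RpL7, chr2L:10201090-10201119, plus strand: gcacgtttccggTCTTTCtttccctttctt
RpS4, chr3L:13041791-13041820, plus strand: cccgcaaatctgCCTTTTccttttcctgtt
RpL13, chr2L:9967318-9967347, plus strand: tggttgcgatttCCTTTTtaattcgttgtt
RpLP0, chr3L:22076083-22076112, plus strand: cgccaacttcacTCTTTCcgttctgtgagc
The second set shows the site CACGCG, which was more common near these summits than CACGTG and reads CGCGTG when it lies on the other strand.
Polr1D, chr2L:19135127-19135156, minus strand: caagcgctgcggCGCGTGggcgcgaggagg
eg, chr3L:21808705-21808734, plus strand: acaatctagcgaCGCGTGcgctttgttgtc
RpS21, chr2L:2856062-2856091, plus strand: gacagggggcgcCACGCGcagcgcagccaa
The third set shows CACGTG, which was less common near these summits.
RpL7, chr2L:10201008-10201037, plus strand: tggcgcgcgtgtCACGTGtgcacgcatttc
RpS4, chr3L:13041850-13041879, plus strand: tttgcagctagcCACGTGctaagttttgtc
mRpL23, chr3L:2373686-2373715, minus strand: tgttggacaaccCACGTGcttttacacggg
jvl, chr3R:14749587-14749616, plus strand: ttcagcctagcgCACGTGtctcaatatttt
The fourth set shows the DRE, which lay mostly upstream of the start rather than in the UTR.
RpS10b, chrX:19597943-19597972, plus strand: tcttaagataaTATCGATAtattgccggcg
Rack1, chr2L:7827303-7827332, minus strand: aaaattcaaacTATCGATAgttttgtcctg
RpL27, chr3R:25685073-25685102, minus strand: ttgccactaagTATCGATAaaaagacgacg
RpS15Aa, chrX:13337695-13337724, minus strand: gtccggctaacTATCGATAggcacgttgag
The TCT words in the first set begin from 0 to 3 bases after the annotated start. All CACGCG and CACGTG windows printed here hold their site inside an annotated 5' UTR, and the DRE windows hold theirs in intergenic DNA. This uniform placement comes from the choice of windows. Among those not printed, the TCT word of RpS10b began 17 bases after the start, and the CACGTG of RpL24 was intergenic. Over all 5' UTR summits, 56 of 70 CACGCG, 12 of 16 CACGTG and 7 of 22 DRE copies were inside a 5' UTR.

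The 5' UTR summits crowded the first bases of the transcribed region. Their median distance to the nearest annotated start was 29 bp downstream (quartiles 4 and 74.25 bp). Of the 384 summits, 214 (55.7%) were within 50 bp of the start, 295 (76.8%) within 100 bp and 378 (98.4%) within 1 kb. The most populated interval of 25 bases was the first one downstream of the start, with 109 summits, followed by 70 in the next and 43 in the one after it. The other 66 summits lay upstream of the nearest start but downstream of an earlier start of the same gene, which is how they came to be in a UTR. In all, 359 summits were in the first segment of the UTR and 25 in a later one, past an intron. The genes concerned had long leaders: the canonical 5' UTR had a median length of 385.5 nt, against 126 nt over all coding genes with one. A rule that asks for a summit in the UTR favours long ones, so this length is in part built in. Every UTR also begins at a start and only longer ones reach farther, so the crowding near starts is likewise in part built in. Within the UTR, 261 summits lay in the first of 3 equal stretches, 89 in the middle one and 34 in the last.

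**Figure D1:**
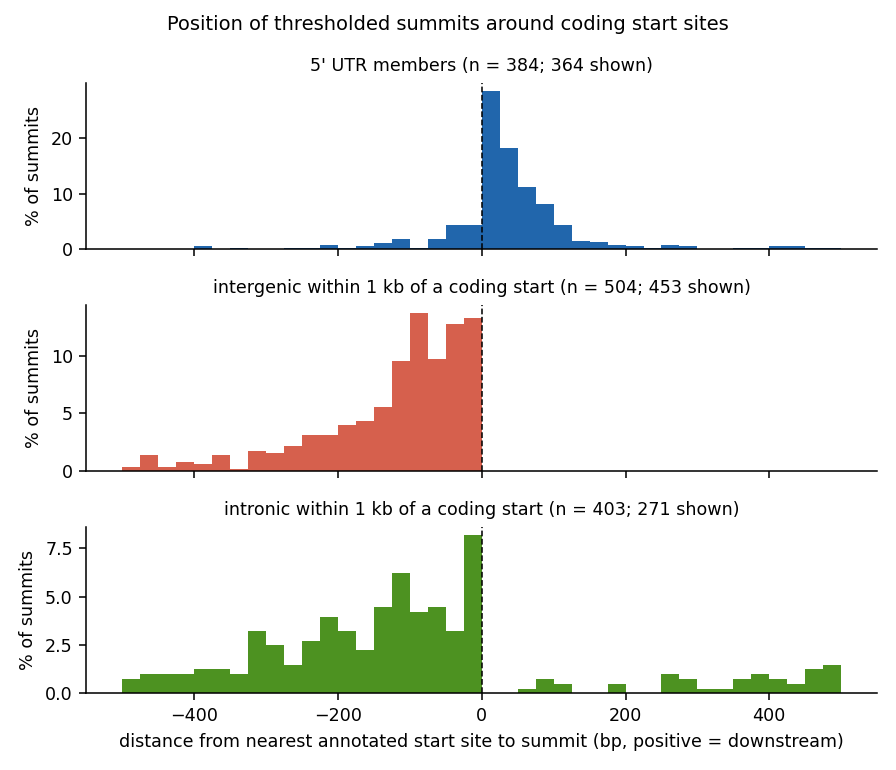
Distance from the nearest annotated start to the summit in bins of 25 bp, as a percentage of the summits in each class, for 5' UTR summits and for intergenic and intronic summits within 1 kb of a coding start. Each panel has its own vertical scale, and the classes are defined by position, so intergenic summits lie upstream by construction; 5' UTR summits peak in the first bin after the start.

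Seen as genes, 383 had a summit in a 5' UTR, since 8 summits lay in the UTRs of a pair of genes at once and 8 genes had more than 1. That is 2.85% of the 13454 coding genes with an annotated 5' UTR, the share against which gene groups are read below. Summits of any kind in the thresholded list were found up to 1 kb from a start of 1650 of these genes, or 12.3%. Of the 5' UTR summits, 104 (27.1%) had the start of a divergent coding gene within 500 bp, close to the 26.1% of all coding genes with a UTR, and for these the peak could belong to either promoter. Credit goes throughout to the gene whose UTR held the summit; for 5 summits the nearest start belonged to another coding gene.

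CG1888 held the strongest of these summits, with a signal of 452 in replicate 3, 617 in replicate 4 and 1056 in the pooled list. It ranked 25 and 8 in the replicates and 12 in the pool, 220 bp upstream of the nearest start and in the second segment of the UTR. Signal is the authors' value per peak relative to a control, and each list has its own scale, so ranks are the measure shared between lists. RpS27, which encodes a protein of the small ribosomal subunit, came next, with signals of 403 and 500.3 in replicates 3 and 4 and 898 in the pool. Its summits in the replicates were 3 and 1 bp from the pooled summit, and its ranks were 32 and 17. Hsp83, the gene of the cytosolic Hsp90 chaperone, had signals of 379 and 464, ranks of 39 and 22, and a pooled signal of 839.

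Below these 3, the summits at RpL7 and Polr1D were the last with a pooled signal above 600. RpL7, a large-subunit ribosomal protein gene, had signals of 282 in replicate 3 and 339 in replicate 4. Polr1D, which encodes a subunit shared by RNA polymerases I and III, had 307 and 308, with ranks of 66 and 56. RpS4 had 205 in replicate 3 and 321 in replicate 4, with ranks of 196 and 53. The next 3 named here have roles in signalling or in neural lineages, and were chosen from the 20 for those roles. The gene insb, whose product Insensitive is a nuclear inhibitor of Notch target genes, had its summit 28 bp after the start, with signals of 290 and 228 and ranks of 79 and 130. Stat92E, the transcription factor of the JAK/STAT pathway, had its summit 365 bp after the start, with 263 and 233 and ranks of 103 and 117. The summit at eg, a zinc-finger gene of the nuclear receptor family that acts in neuroblast lineages, lay 4 bp after the start, with 222 and 183.

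Others among the 20 had pooled signals between 393 and 490. They included CG43116, Chro, RpL13, bgcn, RpL24, mRpL23, ph-p, TRAM, Pdp1 and otk. Chro encodes Chromator, a protein of interphase chromatin and the spindle, and bgcn a partner of the germline differentiation factor Bam. Pdp1 encodes a bZIP protein of the circadian clock, and its summit was 509 bp into a UTR of 2263 nt. The widest difference in rank among the 20 was at ph-p, a Polycomb group gene, with a signal of 282 and rank 86 in replicate 3 but 103 and rank 800 in replicate 4. The pattern was the opposite at CG43116, with 178 and rank 281 in replicate 3 and 307 and rank 59 in replicate 4. In each of the others named here, both replicates placed the summit at rank 337 or better.

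**Figure D2:**
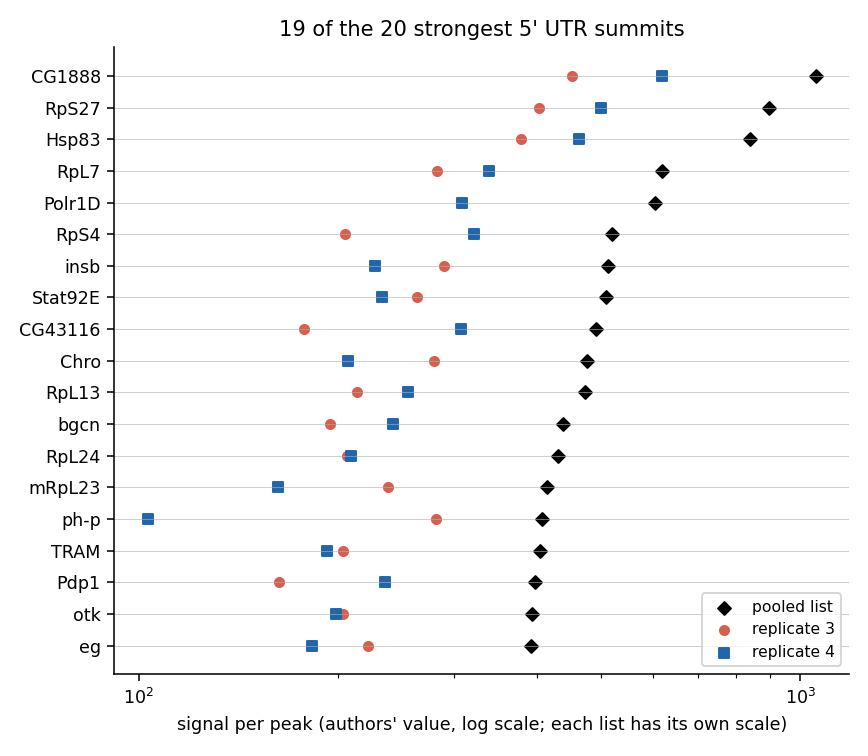
Authors' signal (log scale) of 19 of the 20 strongest 5' UTR summits in the pooled list (diamonds), replicate 3 (circles) and replicate 4 (squares); each list has its own scale, so only the order within a list can be read. CG1888, RpS27 and Hsp83 have the highest values of these summits in all 3 lists.

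Cytoplasmic ribosomal protein genes gave more of these summits than any other of the 19 lists. Of 92 with an annotated 5' UTR, 38 held a summit in it (41.3%, Wilson interval 31.8 to 51.5), against 2.85% of coding genes, although their canonical UTRs were short, with a median of 84.5 nt. The summits at these genes lay close to the start, between 44 bp upstream and 38 bp downstream (median 4.5 bp). All 38 were thus within 50 bp, compared with 176 of the 346 summits at other genes (50.9%). The UTRs that held them had a median length of 73 nt, against 433 nt at the other genes. A summit in a short UTR has little room to lie far from the start, so this closeness is in part built in. The summits at ribosomal protein genes were also stronger, with a median pooled signal of 243 against 153 and a median pooled rank of 550 against 1404.5. Both replicates had the summit among their 2487 strongest for 34 of the 38 (89.5%), and for 171 of the 346 others (49.4%). The weakest of the 38 by pooled rank ranked 2505 in replicate 3 and 1960 in replicate 4. That high ranks in the pool go with high ranks in its replicates is built in, since the pool is made from them.

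Another 28 ribosomal protein genes were marked by a summit up to 1 kb from a start but had none counted in their own 5' UTR. For 1 of them the summit lay in a 5' UTR but closest to the start of a non-coding gene, and so was left out. In 26 of the 28 genes the summit was upstream of the gene's start, at a median of 29.5 bp before it over the 28, and 25 of the summits were intergenic. That summits outside the UTR lay upstream follows largely from the classes. The summits called in the 2 replicates for the same 5' UTR site were themselves a median of 27.5 bp apart, and 41.1% of the pairs were within 20 bp.

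Other groups of broadly expressed genes did not have this share. Mitochondrial ribosomal protein genes had 1 of 73 with a summit in the 5' UTR, mRpL23, whose summit 65 bp after the start ranked 132 in replicate 3 and 289 in replicate 4. Proteasome genes had 0 of 48 (Wilson upper bound 7.41%), respiratory chain genes 1 of 91 (ATPsynE) and vacuolar proton pump genes 1 of 32 (Vha55). Translation factor genes had 6 of 54 (11.1%, 5.19 to 22.2), but 8 by the strongest peaks of replicate 4 alone and 3 by those of replicate 3 alone. The strongest were at eEF2, the ribosome translocation factor, with signals of 100.5 and 140 in replicates 3 and 4, and then at eIF4A, the mRNA helicase, and eIF3h, an initiation factor subunit. Rank differed between the replicates at eIF4A, 2232 in replicate 3 and 710 in replicate 4. Chaperone genes had 2 of 37, Hsp83 and DnaJ-1, and actin and tubulin genes 1 of 17, the alpha-tubulin gene alphaTub84B with signals of 126 and 164. Glycolytic genes had 2 of 13, Eno and Pgk, and 1 by either replicate alone: Eno had no candidate within 100 bp in replicate 3 and Pgk none in replicate 4. Chaperone genes came to 1 in replicate 4 alone and 4 in replicate 3 alone, respiratory chain genes to 0 and 3, vacuolar proton pump genes to 1 and 0, and actin and tubulin genes to 2 and 1. Odorant and gustatory receptor genes, whose products act in chemosensory neurons, had 0 of 39 (upper bound 8.97%).

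**Figure D3:**
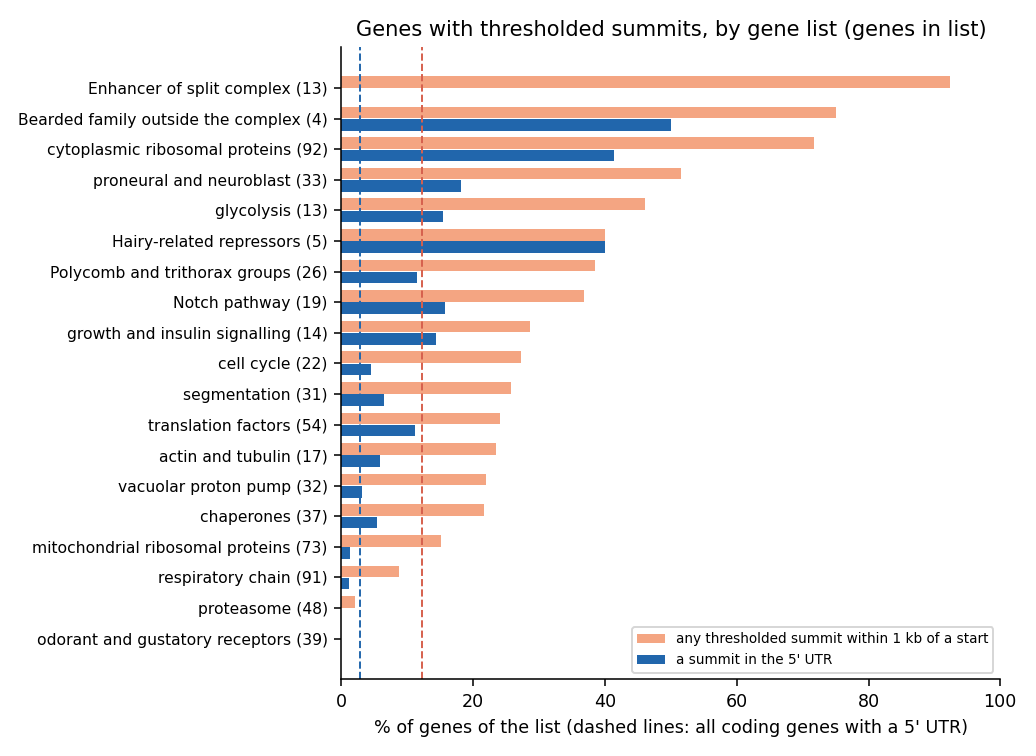
Percentage of the genes of each list (number of genes with a 5' UTR in brackets) with a summit in the 5' UTR (blue) and with any thresholded summit within 1 kb of a start (orange); dashed lines mark the same shares over all coding genes with a 5' UTR, 2.85% and 12.3%. Cytoplasmic ribosomal protein genes reach 41.3% and 71.7%, and the Enhancer of split complex 0% and 92.3%.

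Genes of the Enhancer of split complex had thresholded summits near their starts but not in the 5' UTR. Of its 13 genes, 12 carried a summit up to 1 kb from a start and 0 had one in the 5' UTR, although 1 did among the strongest peaks of replicate 4 alone. The Wilson upper bound for 0 of 13 was 22.8%, so this count cannot be told apart from the 2.85% of all coding genes. The complex with 1 kb on each side held 37 thresholded summits, of which 1 met the rule, in the UTR of CG43116, a neighbouring gene that is not on the list of the complex. Bearded family genes outside the complex, whose products inhibit the ubiquitin ligase Neuralized, had 2 of 4 with a summit in the 5' UTR. These were Ocho and Tom, neighbours on 3L. The Ocho summit ranked 459 in replicate 3 and had no candidate within 100 bp in replicate 4, whereas the Tom summit ranked 2546 and 614. By replicate 3 alone, 1 gene of the list had a summit in the 5' UTR, and by replicate 4 alone 2 did.

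Notch pathway genes had 3 of 19 (15.8%, 5.52 to 37.6) with a summit in the 5' UTR. They were kuz, the protease that cleaves the receptor, mam, the coactivator of the nuclear complex, and N, the receptor itself. All 3 summits lay between 62 and 78 bp after the start. The kuz summit had signals of 97.9 in replicate 3 and 81.7 in replicate 4, and ranks of 1037 and 1330. Those at mam and N were weaker in replicate 3, with 49.4 and 53.6 and ranks of 4159 and 3512, than in replicate 4, where they ranked 893 and 1204. Of the 3 genes, only kuz was among the 2487 strongest of both replicates. The count for the list moved with the library, to 5 of 19 by the strongest peaks of replicate 4 alone and to 1 by those of replicate 3 alone.

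Proneural and neuroblast genes had 6 of 33 (18.2%, 8.61 to 34.4), but 9 by replicate 4 alone and 3 by replicate 3 alone. The strongest were mira, the adaptor that segregates fate determinants in neuroblasts, Kr, the gap gene also used in neuroblasts, and ase, a proneural bHLH gene of neural precursors. Their pooled signals were 165.3, 165.2 and 162, near the median of 156 over all 5' UTR summits, and in replicate 3 the mira summit ranked 2549. Hairy-related repressor genes outside the complex had 2 of 5, hry and cwo, and 0 by replicate 4 alone. The summit at hry, the pair-rule repressor gene, lay 26 bp after the start with signals of 142 and 96.9. That at cwo, a repressor of the circadian clock, lay 653 bp after the start and ranked 1000 in replicate 3 but 3012 in replicate 4. Segmentation genes had 2 of 31, again hry and Kr, and 4 by replicate 4 alone. Polycomb and trithorax group genes had 3 of 26, ph-p, E(z) and Su(z)2, and Su(z)2 had no candidate in replicate 4 within 100 bp. Cell cycle genes had 1 of 22, stg, the phosphatase that drives entry into mitosis, at rank 2336 of the pool, and 2 by replicate 4 alone. Among growth and insulin signalling genes, Thor, an inhibitor of translation initiation, had signals of 121 and 116. Apart from the ribosomal protein genes, no list had more than 6 genes with a summit in the 5' UTR. Leader length also differed between lists: the median canonical 5' UTR was 380 nt for Notch pathway, 250.0 nt for proneural and neuroblast and 387 nt for Polycomb and trithorax genes, against 126 nt over all coding genes, and its part in these shares was not tested. In all, 71 of the 384 summits were at a gene of one of the 19 lists, and 38 of these were at cytoplasmic ribosomal protein genes. The share of all coding genes on the lists was not computed, so the count of 71 cannot be read as high or low.

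Other genes stood out by the place or number of their summits. The summits farthest from any start were at rudhira (4954 bp), spen (2820 and 1873 bp), KP78b (2092 bp) and Mef2 (1823 bp). For the first 3 genes the summit lay in the second UTR segment. The summit at Mef2, the myogenic transcription factor gene, lay in the first segment of a UTR of 2460 nt, with signals of 129 in replicate 3 and 149 in replicate 4. The gene spen, which encodes a large RNA-binding regulator, had 3 summits in its UTR, the most of any gene, at pooled ranks of 665, 986 and 2333. The stronger pair of these held the E box CAGCTG, and the third, 30 bp after a start, did not. CAP, Keap1, drn, ush, Rm62, CG9331 and Bacc had 2 each. The pairs at CAP and ush lay 27306 and 33485 bp apart, near different starts, and the pair at Keap1, the sensor of oxidative stress, lay 216 bp apart, with each summit missing a candidate within 100 bp in one of the replicates.

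More of the summits in 5' UTRs were among the strongest peaks of replicate 4 than among those of replicate 3. Their median pooled signal was 156 (range 114 to 1056), against 158 for the 504 intergenic and 162 for the 403 intronic summits within 1 kb of a coding start. The 100 strongest of the 2487 pooled summits held 8 of the 384 5' UTR summits, 28 of the 504 intergenic and 13 of the 403 intronic ones. A candidate summit lay within 100 bp in both replicates for 358 (93.2%), close to the 92.6% of all thresholded summits. Replicate 4 had 318 of the 5' UTR summits among its 2487 strongest (82.8%, 78.7 to 86.3) and replicate 3 had 256 (66.7%, 61.8 to 71.2). The order was reversed for the intergenic summits, with 71.6% in replicate 4 and 79.8% in replicate 3, and the intronic ones had 76.9% and 76.2%. All thresholded summits had 78.1% in replicate 4 and 75.9% in replicate 3. Both replicates had 205 of the 5' UTR summits among their strongest (53.4%, 48.4 to 58.3). The share was 55.2% for the intergenic, 58.3% for the intronic and 58.0% for all thresholded summits. Of the 5' UTR summits, 15 were among the strongest of neither.

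The same difference appeared when the rule was applied to each replicate's own 2487 strongest candidates. In replicate 4, 454 of them were 5' UTR summits (18.3%, 16.8 to 19.8) and 452 were intergenic near a coding start. In replicate 3 there were 309 5' UTR summits (12.4%, 11.2 to 13.8) and 583 intergenic ones. The 309 genes of replicate 3 and 458 genes of replicate 4 shared 167, which is 54.0% of the first list and 36.5% of the second. Ribosomal protein genes numbered 31 in replicate 3 and 37 in replicate 4, so their count depended less on the replicate than the whole class did. With 1 library a replicate, a difference between replicates cannot be told apart from one between libraries, and its cause was not tested.

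**Figure D4:**
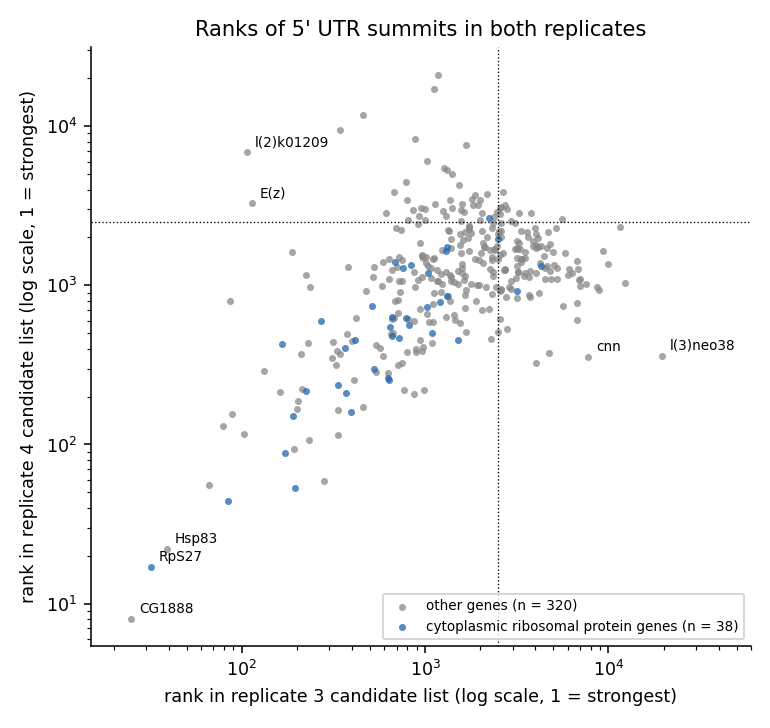
Rank of each of the 358 5' UTR summits found in both replicates, in the replicate 3 list (horizontal) and the replicate 4 list (vertical), both on log scales with 1 the strongest; dotted lines mark rank 2487. Ribosomal protein genes (blue) mostly lie below both lines, and more of the other summits lie beyond the line of replicate 3 than beyond that of replicate 4.

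Single genes could differ widely between the replicates. The summit at l(2)k01209 ranked 107 in replicate 3 with a signal of 260.5 and 6865 in replicate 4 with 34.6. E(z), the histone methyltransferase gene of the Polycomb group, ranked 114 and 3290, and mus312, a DNA repair gene, 342 and 9489. CG1227 and CG8132 also ranked lower in replicate 4. In the other direction, l(3)neo38 ranked 19511 in replicate 3 with a signal of 22.3 and 361 in replicate 4 with 149. The centrosome gene cnn ranked 7759 and 356, and p, Gpat4 and Fbxl7 followed. Across the 358 summits the signals of the replicates had a Spearman rho of 0.397, against 0.415 for intergenic and 0.478 for intronic summits near starts. These values describe sites that share 1 pair of libraries and were selected on the pooled signal. No candidate lay within 100 bp for 16 summits in replicate 3 and for 10 in replicate 4, and none of the 384 lacked one in both.

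The distance to the start, taken without its sign, did not change steadily with strength: in groups of 96 from the strongest of the 384 summits to the weakest its median was 43.5, 46.5, 34.5 and 48 bp. With its sign, the median was 17.5, 27, 26 and 45 bp downstream, so the weakest group lay farthest after the start. The median UTR length rose over the same groups, at 263.5, 391.5, 412.5 and 442 nt, and its part in this was not tested. The share within 50 bp was 54.2%, 53.1%, 64.6% and 51.0%. Ribosomal protein genes made up 25, 9, 4 and 0 of the 4 groups, and the number among the strongest of both replicates was 91, 74, 34 and 6. Candidates below the authors' threshold met the same rule less often, at 2504 of 27513 (9.10%).

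CACGCG was more common near 5' UTR summits than CACGTG, and the N box, another site ascribed to the family, is given with the other motifs. CACGTG reads the same on both strands and CACGCG does not, so CACGCG was searched with more words and this contrast is in part built in. CACGCG occurred on either strand within 100 bp of 64 of the 384 summits (16.7%, 13.3 to 20.7). The share was 6.94% (5.04 to 9.50) for intergenic and 10.2% (7.59 to 13.5) for intronic summits near coding starts, 10.6% (9.48 to 11.9) for 5' UTR candidates below the threshold, and 5.98% for windows of the same length on the starts of all coding genes with a 5' UTR. The intervals of the 5' UTR and intronic summits met at their ends. CACGTG showed the opposite order between places, with intervals that overlapped: 16 of the 5' UTR summits had it (4.17%, 2.58 to 6.66), against 7.74% (5.71 to 10.4) of the intergenic ones and 2.94% of all starts. The strongest 5' UTR summits with CACGTG were those of RpL7 and RpS4 shown above. Either site was present at 76 summits (19.8%), and 4 had both. The 5' UTR summits with CACGCG were no stronger than those without it, with median pooled signals of 155 and 157. Of the 70 CACGCG sites at these summits, 56 (80.0%) were inside an annotated 5' UTR and 53 were downstream of the nearest start. Their median position was 52 bp after that start and a median of 34.5 bp from the summit. The windows are centred on summits in a 5' UTR, so this placement is in part built in. Of the 124 N box copies in the same windows, 91 (73.4%) were inside a 5' UTR and 72 were downstream of the start. The DRE differed, with 31.8% of its copies inside a 5' UTR.

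Base composition differs between these places and bears on such shares. The windows on 5' UTR summits had a median GC content of 45.8%, those on intergenic summits 40.8% and those on 5' UTR candidates below the threshold 44.3%. Windows centred 29 bp after every coding start, the median distance of the 5' UTR summits, had 42.8%. Among windows of 50% GC or more, CACGCG was in 31 of 106 at the 5' UTR summits (29.2%, 21.4 to 38.5), in 13.1% (7.96 to 20.8) of the intergenic ones, in 17.0% (14.0 to 20.5) of those below the threshold and in 12.3% (11.0 to 13.7) of the shifted starts. Between 40 and 50% GC the shares were 15.5% (11.1 to 21.3), 6.88% (3.88 to 11.9), 10.6% (9.06 to 12.3) and 7.86% (7.22 to 8.54). Under 40% GC, 3 of 85 summits had the site, and the interval (1.21 to 9.87%) contained all 3 of the other shares. The difference from all starts was thus present at middle and high GC, and between 40 and 50% GC the interval of the summits overlapped those of the intergenic summits and of the UTR candidates below the threshold.

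The remaining motifs stood at varied levels beside those of other regions. The E box CAGCTG, a site of proneural activators, was at 18.2% (14.7 to 22.4) of the 5' UTR summits, 16.1% of the intergenic ones and 14.0% of all starts. The N box, CACNAG, was at 28.4%, 26.8% and 24.0%. The GAGA factor repeat GAGAGAG was at 9.38% (6.85 to 12.7) of the 5' UTR and 9.13% of the intergenic summits, against 17.1% of the intronic ones and 4.06% of all starts. CAGGTAG, to which the early activator Zelda binds, was at 3 summits (0.781%), and GGCACGTG, which always contains CACGTG, at 2. The DRE was at 22 (5.73%), with 17 of its 22 copies upstream of the start, and motif 1 at 13 (3.39%). At all starts the DRE stood at 7.75% and motif 1 at 5.28%, whereas the DRE was at 7.54% of the intergenic and 0.993% of the intronic summits and at 2.77% of all thresholded summits. Motif 1 was at 1.98%, 1.24% and 1.37% of these. With the N box set aside, 206 summits (53.6%) had none of these motifs and neither CACGTG nor CACGCG within 100 bp, among them those of CG1888, Hsp83 and Stat92E.

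**Figure D5:**
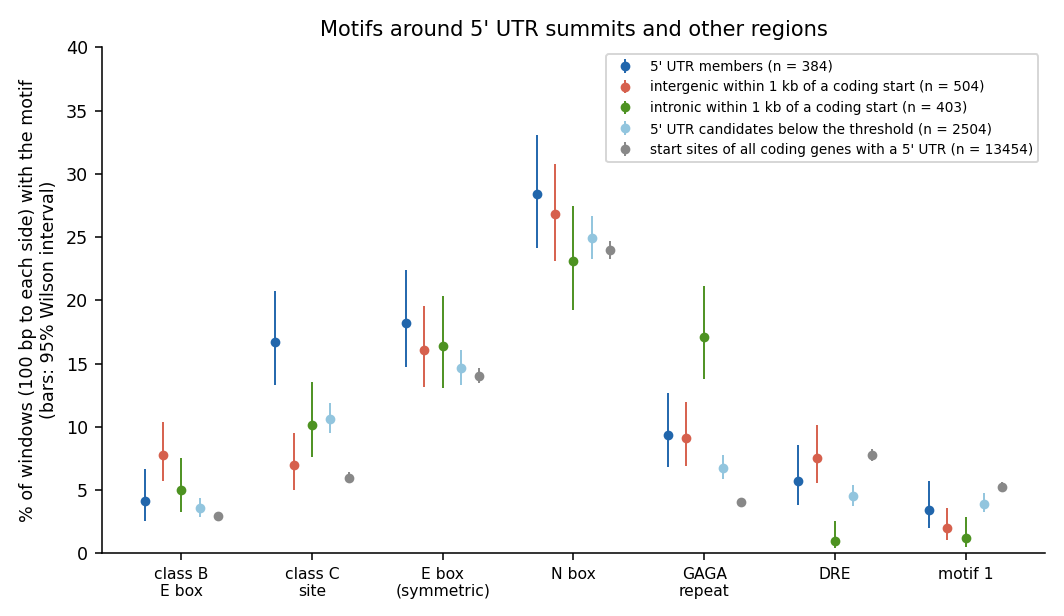
Percentage of windows reaching 100 bp to each side that hold each motif on either strand, with 95% Wilson intervals, for 5' UTR summits, intergenic and intronic summits within 1 kb of a coding start, 5' UTR candidates below the threshold and the starts of all coding genes with a 5' UTR. Class B E box stands for CACGTG, class C site for CACGCG, and the symmetric E box for CAGCTG; the class C site is at 16.7% of 5' UTR summits and 6.94% of intergenic ones.

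Ribosomal protein genes had other promoter words than the remaining 5' UTR summits. A TCT element between 5 bases before and 25 bases after the nearest start was present at 26 of the 38 (68.4%, 52.5 to 80.9) and at 16 of the 346 others (4.62%, 2.87 to 7.38). The share over all 92 ribosomal protein genes was 66.3%, and over all coding genes with a 5' UTR 3.58%, and it was in 22 of the 38 genes with a 5' UTR summit and 39 of the 54 without one when counted at canonical starts. A window narrowed to between 3 bases before and 5 after the start found the words at 2 summits in all. The DRE was at 12 of the 38 (31.6%) and 10 of the 346 (2.89%), beside 28.3% of the starts of all ribosomal protein genes. CACGTG was at 5 of the 38 (13.2%, 5.75 to 27.3) and 11 of the 346 (3.18%, 1.78 to 5.60), beside 16.3% of all ribosomal protein starts. CACGCG did not follow this split, with 7 of 38 (18.4%) and 57 of 346 (16.5%). Motif 1 was at 5 of the 38 (13.2%, 5.75 to 27.3) and 8 of the 346 (2.31%, 1.18 to 4.50), beside 6.52% of all ribosomal protein starts. The initiator core TCAGT, between 5 bases before and 8 after the start, was at 0 of the 38 and 54 of the 346 (15.6%), and GAGAGAG was at 0 and 36. Both were also at 0 of the starts of all 92 ribosomal protein genes, with or without a 5' UTR summit.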

How the data were processed

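Peak lists in narrowPeak form, on dm6 per the labels, were deposited by the authors for replicate 3, replicate 4, the pooled reads (30000 candidates each) and the thresholded set; aligner, peak caller, threshold and depth are not stated in the sources used. The deposited signal is the authors' value relative to a control and was used within a list only. The deposited −log10 q values were 3.82 in all thresholded peaks and ranked nothing. The thresholded list equalled the 2487 strongest pooled candidates.

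Summits were placed on the Ensembl release 115 annotation of the same assembly, and distances count from 0 at the annotated start. A candidate within 100 bp counted as the same summit, taking the strongest. Motifs were searched on both strands within 100 bp of the summit, core promoter words on the sense strand. Intervals are 95% Wilson intervals. With 1 group of 2 samples no test between groups was possible, and none was run across sites.

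The 5' UTR class, the 19 gene lists and the motifs were chosen with earlier results of these data known. Genes named are those of the 20 strongest summits, up to 3 strongest of each list, summits in the Enhancer of split complex, the 5 farthest from a start, the 5 with the largest rank differences each way, genes with 2 or more summits, and up to 6 strongest per printed motif. Some genes that this rule names are not reported here. The TCT element window, the strata of GC content and the shifted starts were chosen after seeing the data. Python 3.11.15, numpy 2.4.6, scipy 1.17.1 and matplotlib 3.10.9 were used, and the rule and the matching were tested on simulated data.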

Additional observations from a re-analysis of the deposited data

How the results depend on the processing

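The number of 5' UTR summits fell to 182 when only the 1243 strongest thresholded peaks were used. Their share of peaks was from 12.4% to 18.3% when 1 replicate's own strongest candidates took the place of the pooled list. The median distance to the start was 48 bp when measured from the start of the canonical transcript and 22.5 bp in the 1243 strongest peaks. CACGTG or CACGCG fell to 12.0% of summits in a window reaching 50 bp to each side, where a shorter window holds fewer words by construction. The number of summits stayed within 1.5 times the main count with UTRs of canonical transcripts only (278), without summits that also lay in coding sequence (381), with the nearest start taken among coding genes only (393) and with summits within 500 bp merged (383). Matching summits within 50 or 200 bp gave 283 or 379 found in both replicates and 174 or 216 among the strongest of both. Ribosomal protein genes numbered 33 among the 1243 strongest peaks, 37 without replicate 3 and 31 without replicate 4. Counts of most smaller lists moved with the library, as given beside them. No paired analysis was possible because the samples form 1 group. Depth is unknown, so the precision of single signals could not be set, and summit positions are no finer than the median of 27.5 bp by which the replicates differ.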
